A study of Homo sapiens with 8 samples.

Results

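The NF-kB subunits and their inhibitors were followed as 10 named genes among the 34618 genes of the deposited count table. They were chosen by name, with earlier results of these data known. They comprise the 5 subunit genes NFKB1, NFKB2, REL, RELA and RELB, the IkB genes NFKBIA, NFKBIB, NFKBIE and NFKBIZ, and TNFAIP3. All 10 were found, and all 10 passed the filter on low counts that left 15286 genes for testing. Their counts lay between 282 and 1357 per library. RNA was sequenced in 8 libraries from THP1, by its label an acute myeloid leukaemia (AML) line, known as monocytic. The 4 RRM2_OE libraries came from cells transduced with a construct called the iRxI/AxA mutant in one label and RRM2 OE in another. The 4 MOCK libraries came from cells carrying the empty vector. All cells of both groups received doxycycline at 2 µg/mL and grew in serum approved for Tet systems. The labels do not say whether the engineered cells were clones or pools, or whether replicates were separate cultures. The p-values therefore measure only the spread between these libraries, which may be technical.

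NF-kB is a family of dimeric transcription factors held inactive in the cytoplasm by IkB proteins. Signals from toll-like, interleukin and tumour necrosis factor receptors activate a kinase complex that marks the IkB proteins for destruction, and the freed dimers enter the nucleus. Several of the genes that the dimers then switch on encode their own brakes, NFKBIA and TNFAIP3 among them, which makes the pathway a negative feedback loop. In monocytes and macrophages it drives cytokine, chemokine and co-stimulatory genes.

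Library totals lay between 10994255 and 11686152 counts. RRM2, the small subunit of ribonucleotide reductase, stood at 223, 236, 215 and 224 CPM (counts scaled to a common library size after TMM) in the RRM2_OE libraries, against 116, 128, 123 and 127 CPM in the MOCK libraries. Its log2 fold change was 0.87 (SE 0.05, adjusted p = 5.64e-07). Here and below, p-values from the quasi-likelihood F test of edgeR were adjusted by the Benjamini-Hochberg method across every gene tested. An introduced and a resident RRM2 transcript cannot be told apart in these counts. Of 17 monocytic marker genes, 16 averaged at least 1 CPM in MOCK, LYZ highest at 1595 to 2307 CPM over the 8 libraries, and CD68 was lowest at 0.265 to 1.13 CPM. CDKN2A, which is commonly described as deleted in that line, was at 48.9 to 55.5 CPM in RRM2_OE and 44.6 to 56.3 CPM in MOCK libraries. Erythroid and megakaryocyte genes were also present, with GATA1 at 96.1 to 114 CPM and ITGA2B at 325 to 381 CPM over all libraries. The identity of the line was not tested, and the label is kept as the submitters' name. Libraries numbered 1 and 3 also stood apart from those numbered 2 and 4 in both groups, so fold changes within each of these sets are plotted below for the 10 genes and printed for some of the genes named. Fits within a set were added after the data were seen, and their p-values leave out the spread between the sets. Whether the sets differ in fold change was not tested.

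Of the 10 genes, 4 rose in RRM2_OE and 0 fell (edgeR, threshold of 0.05 on the adjusted p). Over all genes tested the same rule called 7.41% higher and 5.42% lower, 12.8% in either direction. NFKBIZ, NFKB2, NFKBIA and TNFAIP3 rose, by 1.55-fold, 1.28-fold, 1.27-fold and 1.26-fold. The subunits NFKB1, REL, RELA and RELB and the inhibitors NFKBIB and NFKBIE did not pass. The median log2 fold change of the 10 genes was 0.15, beside 0.00 over all genes tested, where the central 90% of genes lay between -0.33 and 0.45. In 5 of the 10 genes the 4 RRM2_OE libraries all lay above the 4 MOCK libraries, which 10.5% of all genes tested did, and in 0 they all lay below, as in 8.89% of all genes tested. The 10 genes were chosen with earlier results known, so neither the calls nor this separation is independent evidence of a direction. In bulk RNA, a change in the level per cell cannot be told apart from a change in the share of cells that express the gene.

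**Figure D1:**
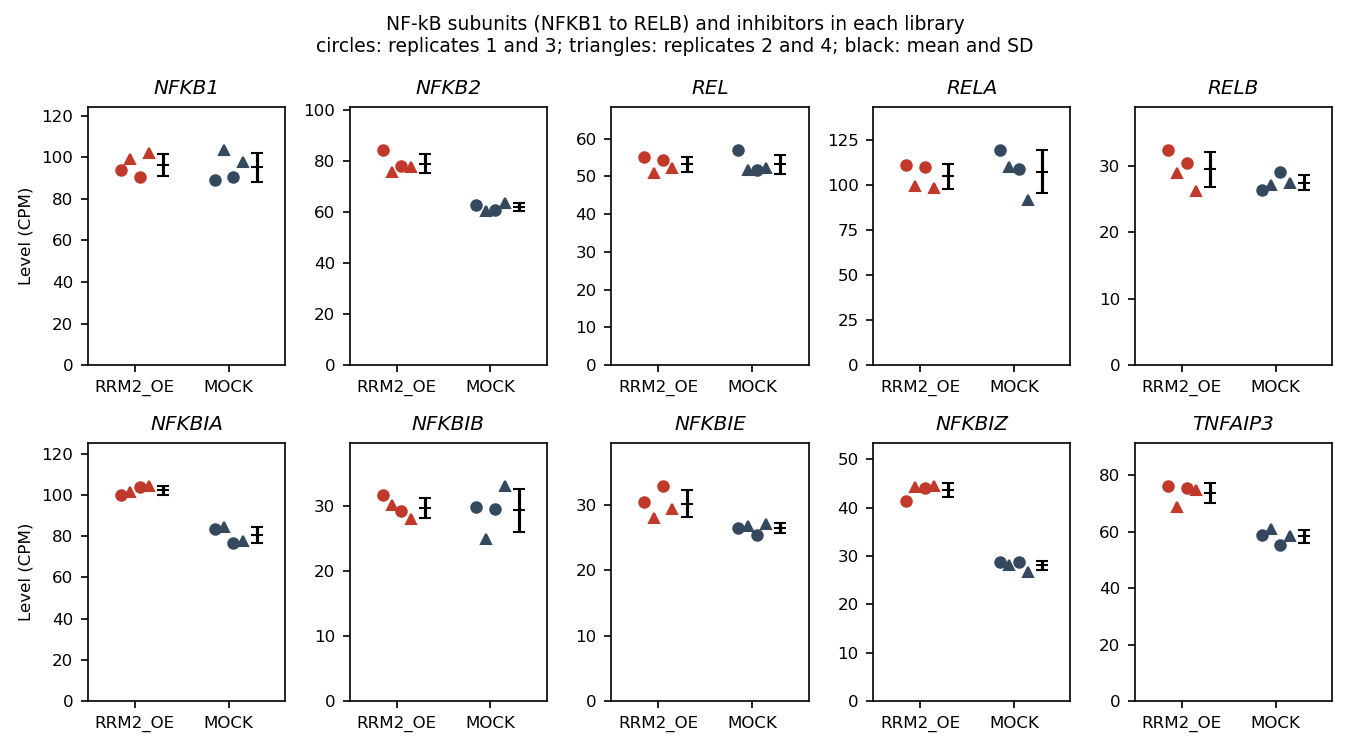
Level in CPM of each gene in each library, RRM2_OE on the left and MOCK on the right of each panel, circles for replicates 1 and 3, triangles for replicates 2 and 4, and black bars for the mean and SD of 4 libraries. The groups are apart in NFKB2, NFKBIA, NFKBIE, NFKBIZ and TNFAIP3 and overlap in the other 5 genes.

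NFKB2 encodes the precursor of the non-canonical pathway, whose processed product pairs with RELB. It had 84.2, 75.5, 78.1 and 77.7 CPM in the RRM2_OE libraries, against 62.8, 60.2, 60.7 and 63.3 CPM in the MOCK libraries. Every RRM2_OE library was above every MOCK library. Its log2 fold change was 0.35 (SE 0.05, adjusted p = 6.22e-04, edgeR), and it was the subunit gene that passed. NFKB2 (ENSG00000077150) lies on the plus strand of chromosome 10 at 104153867 to 104162281 of hg19. RefSeq gives it 3 promoter windows in GRCh38.p14, each reaching from 250 bases before a transcript start to 50 after it, and 2 of them hold matches to the κB consensus, the 10-base site that NF-kB dimers bind. These windows are shown because NFKB2 rose, with the matches, found on either strand, in capitals. In the first window a pair of matches overlap by 9 bases and run together.
NFKB2, chr10:102394328-102394627, plus strand: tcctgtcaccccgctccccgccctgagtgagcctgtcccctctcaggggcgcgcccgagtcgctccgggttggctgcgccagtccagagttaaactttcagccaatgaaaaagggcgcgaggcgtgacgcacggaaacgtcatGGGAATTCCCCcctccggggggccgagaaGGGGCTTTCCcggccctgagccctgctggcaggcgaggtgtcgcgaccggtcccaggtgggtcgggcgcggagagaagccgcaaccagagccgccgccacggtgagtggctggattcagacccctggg
NFKB2, chr10:102395455-102395754, plus strand: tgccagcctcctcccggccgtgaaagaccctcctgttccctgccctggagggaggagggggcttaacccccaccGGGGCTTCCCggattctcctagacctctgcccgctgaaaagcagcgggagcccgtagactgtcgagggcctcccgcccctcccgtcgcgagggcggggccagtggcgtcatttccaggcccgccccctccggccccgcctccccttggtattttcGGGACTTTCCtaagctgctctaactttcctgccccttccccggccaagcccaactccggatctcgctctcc

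NFKB1 encodes the precursor of the canonical DNA-binding subunit. Its level was 93.8, 99.4, 90.5 and 102 CPM in RRM2_OE and 88.8, 104, 90.3 and 97.7 CPM in MOCK. The groups overlapped over most of their range, and the log2 fold change was 0.02 (SE 0.06, adjusted p = 0.882, edgeR). RELA, the main transactivating subunit of the canonical dimer, was at 111, 99.4, 110.2 and 98.5 CPM in RRM2_OE and 119.5, 110.2, 109 and 91.5 CPM in MOCK. Here too the groups overlapped, with MOCK replicate 1 highest and MOCK replicate 4 lowest of the 8 libraries. RELA's log2 fold change was -0.04 (SE 0.08, adjusted p = 0.815, edgeR).

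REL, a subunit prominent in lymphoid and myeloid cells, gave 55.2, 50.9, 54.3 and 52.3 CPM in RRM2_OE and 57.0, 51.7, 51.7 and 52.3 CPM in MOCK. The group means were 53.2 ± 1.96 and 53.2 ± 2.55 CPM in RRM2_OE and MOCK (SD, n = 4 each), and the log2 fold change was -0.00 (SE 0.05, adjusted p = 1.0, edgeR). RELB, the partner of the processed NFKB2 product, was at 32.4, 28.9, 30.4 and 26.2 CPM in RRM2_OE and 26.4, 27.1, 29.02 and 27.4 CPM in MOCK. The lowest RELB value of all 8 libraries was in RRM2_OE replicate 4, and the change of 0.10 did not pass (SE 0.07, adjusted p = 0.430, edgeR). It was 0.18 within replicates 1 and 3 and 0.02 within replicates 2 and 4, and neither passed (adjusted p = 0.178 and 0.921, edgeR).

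NFKBIA encodes IkB-alpha, the inhibitor that retains RELA-containing dimers in the cytoplasm and is itself a rapid NF-kB target. It was at 99.8, 101, 104 and 104 CPM in RRM2_OE, against 83.6, 84.3, 76.7 and 77.5 CPM in MOCK. The lowest RRM2_OE library was well above the highest MOCK library. Its log2 fold change was 0.35 (SE 0.05, adjusted p = 5.20e-04, edgeR), and the change was 0.34 within replicates 1 and 3 and 0.35 within replicates 2 and 4. NFKBIA (ENSG00000100906) lies on the minus strand of chromosome 14 at 35870717 to 35873955 of hg19. Its RefSeq promoter window in GRCh38.p14 is shown as the textbook example of κB-driven feedback, and it holds 1 match to the consensus, whose first base is at position -81 counted from the transcript start as 0.
NFKBIA, chr14:35404700-35404999, minus strand: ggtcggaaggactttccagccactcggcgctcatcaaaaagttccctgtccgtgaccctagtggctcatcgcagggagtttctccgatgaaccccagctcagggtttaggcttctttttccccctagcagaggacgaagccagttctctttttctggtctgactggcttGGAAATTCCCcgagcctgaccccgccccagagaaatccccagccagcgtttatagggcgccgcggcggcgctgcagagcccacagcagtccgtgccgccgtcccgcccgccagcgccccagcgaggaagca

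NFKBIZ encodes an atypical IkB that resides in the nucleus, binds the processed NFKB1 product and is needed for the induction of a subset of secondary NF-kB targets. It had the largest change of the 10 genes. Its level was 41.4, 44.3, 44.0 and 44.5 CPM in RRM2_OE, against 28.8, 28.0, 28.8 and 26.7 CPM in MOCK. The ranges are far apart, and the libraries of each group lay within a few CPM of one another. The log2 fold change was 0.63 (SE 0.06, adjusted p = 2.58e-05, edgeR), which ranked 325 from the top among the 15286 genes tested. NFKBIZ (ENSG00000144802) lies on the plus strand of chromosome 3 at 101546835 to 101579866 of hg19, and its span shares 239 bp with NXPE3 on the same strand. NXPE3 itself was at 44.6 to 52.3 CPM in RRM2_OE and 43.7 to 52.0 CPM in MOCK, with a log2 fold change of -0.04 (SE 0.07, adjusted p = 0.762, edgeR). The sources used here do not say how reads in the shared stretch were counted. RefSeq lists 2 promoter windows for NFKBIZ, and each holds 1 match to the κB consensus. Both are printed because this gene moved most.
NFKBIZ, chr3:101827740-101828039, plus strand: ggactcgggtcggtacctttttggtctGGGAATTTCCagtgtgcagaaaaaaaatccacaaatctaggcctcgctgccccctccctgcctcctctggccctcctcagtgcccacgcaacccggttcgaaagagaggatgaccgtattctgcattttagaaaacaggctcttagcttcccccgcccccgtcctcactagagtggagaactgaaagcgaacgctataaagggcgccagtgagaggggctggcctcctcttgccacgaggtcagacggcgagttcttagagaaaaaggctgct
NFKBIZ, chr3:101849264-101849563, plus strand: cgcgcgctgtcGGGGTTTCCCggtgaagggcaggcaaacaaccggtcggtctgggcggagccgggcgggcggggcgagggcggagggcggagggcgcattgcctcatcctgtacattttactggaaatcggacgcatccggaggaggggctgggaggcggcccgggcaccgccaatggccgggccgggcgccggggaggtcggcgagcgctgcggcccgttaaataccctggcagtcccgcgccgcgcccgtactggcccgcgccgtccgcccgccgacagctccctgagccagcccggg

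NFKBIE encodes IkB-epsilon, which holds RELA and REL dimers and is resynthesised more slowly than IkB-alpha. It was at 30.5, 28.0, 32.9 and 29.4 CPM in RRM2_OE and 26.4, 26.8, 25.4 and 27.1 CPM in MOCK. The groups did not overlap, but the log2 fold change of 0.19 missed the threshold (SE 0.07, adjusted p = 0.0830, edgeR). With replicate number as a block the change of 0.19 passed (adjusted p = 0.0230, edgeR), though same-numbered libraries are not shown to be pairs. It was 0.29 within replicates 1 and 3 (adjusted p = 0.0149) and 0.09 within replicates 2 and 4 (adjusted p = 0.556, edgeR).

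NFKBIB encodes IkB-beta, an inhibitor of the same dimers with a slower turnover. Its values were 31.7, 30.1, 29.2 and 28.0 CPM in RRM2_OE and 29.8, 24.9, 29.6 and 33.1 CPM in MOCK. MOCK held both the highest and the lowest library. The log2 fold change was 0.02 (SE 0.08, adjusted p = 0.920, edgeR). The span of NFKBIB shares 163 bp with SIRT2 on the opposite strand, and SIRT2 did not pass either (log2 fold change 0.08, SE 0.13, adjusted p = 0.769, edgeR).

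TNFAIP3 encodes a ubiquitin-editing enzyme that ends signalling from the tumour necrosis factor and toll-like receptors upstream of the IkB kinase. Its level was 76.2, 68.6, 75.5 and 74.7 CPM in RRM2_OE, against 58.8, 60.9, 55.2 and 58.7 CPM in MOCK. The groups were separated by several CPM. The log2 fold change was 0.34 (SE 0.05, adjusted p = 0.00135, edgeR). It was 0.41 within replicates 1 and 3 and 0.26 within replicates 2 and 4, and both passed (adjusted p = 7.89e-09 and 0.00144, edgeR). Those p-values leave out the spread between the sets, so they cannot be compared with that from all 8 libraries. TNFAIP3 (ENSG00000118503) lies on the plus strand of chromosome 6 at 138188351 to 138204449 of hg19, where WAKMAR2 on the opposite strand shares 1020 bp of its span and was at only 4.09 to 4.42 CPM in RRM2_OE and 3.87 to 5.66 CPM in MOCK. The RefSeq promoter window of TNFAIP3 holds 2 matches to the κB consensus a few bases apart, beginning at positions -67 and -55, and is shown for this close pair.
TNFAIP3, chr6:137867009-137867308, plus strand: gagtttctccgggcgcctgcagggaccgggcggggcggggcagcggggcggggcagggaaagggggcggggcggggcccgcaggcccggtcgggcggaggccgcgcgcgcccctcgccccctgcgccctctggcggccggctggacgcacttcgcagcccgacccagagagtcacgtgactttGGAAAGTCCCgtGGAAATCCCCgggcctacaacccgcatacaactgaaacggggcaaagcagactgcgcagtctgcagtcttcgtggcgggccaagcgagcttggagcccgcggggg

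**Figure D2:**
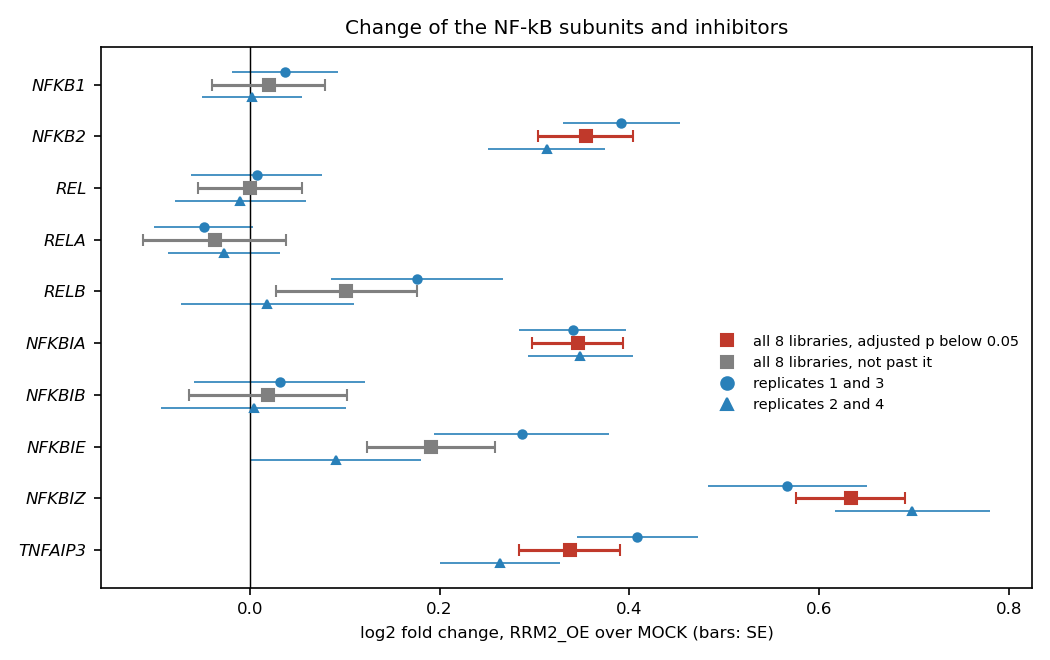
The log2 fold change of RRM2_OE over MOCK for each gene, with bars for the SE, from all 8 libraries (squares, red where the adjusted p was below 0.05) and within replicates 1 and 3 (blue circles) or 2 and 4 (blue triangles). NFKBIZ lies at 0.63, NFKB2, NFKBIA and TNFAIP3 lie between 0.34 and 0.35, and the rest lie between -0.04 and 0.19.

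The κB consensus was not limited to the genes that rose. RefSeq promoter windows were found for 8 of the 10 genes, the table holding none for RELB and NFKBIE, and 7 of these 8 had a match in at least 1 window. Over the whole RefSeq table, 13.3% of genes and 11.3% of windows had one. NFKB1 and NFKBIB, which did not pass the test, carry the same match as the first NFKBIZ window. REL and NFKBIB each carry a run in which a pair of matches overlap, and the NFKBIB window holds 3 matches in all. The first match of each window is set out here for comparison.
NFKB1 match, chr4:102501109-102501408: GGGAATTTCC
NFKBIB match, chr19:38899719-38900018: GGGAATTTCC
NFKBIZ match, chr3:101827740-101828039: GGGAATTTCC
REL match, chr2:60881324-60881623: GGGAAATTCC
In neither of the 2 windows of RELA was a match found. A match is a description of the letters in these windows, and binding was not measured.

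Levels of different genes were compared per exon length, in the authors' RPKM. NFKBIA was the most abundant of the 10 in both groups, at 43.2 ± 1.22 RPKM in RRM2_OE and 33.7 ± 1.28 RPKM in MOCK (SD, n = 4 each). RELA followed at 19.2 ± 1.01 RPKM in RRM2_OE and 19.5 ± 1.81 RPKM in MOCK. The lowest were NFKBIZ, at 7.40 ± 0.32 RPKM in RRM2_OE and 4.73 ± 0.11 RPKM in MOCK, and REL, at 4.73 ± 0.11 RPKM in RRM2_OE and 4.69 ± 0.17 RPKM in MOCK (SD, n = 4 each). The span of REL shares 5702 bp with ENSG00000267520 on the same strand, which had 0 counts in every library. How reads in that stretch were counted is not stated, and whether this lowers the RPKM of REL was not tested. In MOCK, the ranges of NFKB1, NFKB2, NFKBIB and TNFAIP3 each overlapped the next in this order, as did those of NFKBIZ and REL at the bottom. In RRM2_OE, NFKBIZ lay above REL in all 4 libraries, and the range of NFKB2 overlapped that of RELA. Summed over the 5 subunits, RNA per exon length came to 65.8 to 69.0 RPKM in RRM2_OE and 61.0 to 63.1 RPKM in MOCK. The 4 IkB genes together came to 73.9 to 76.1 RPKM in RRM2_OE and 59.8 to 62.9 RPKM in MOCK. NFKB2 made up 25.9% to 27.0% of the subunit sum in RRM2_OE libraries and 21.1% to 23.5% in MOCK libraries, whereas the share of RELB was 13.3% to 15.3% in RRM2_OE and 13.7% to 15.4% in MOCK.

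**Figure D3:**
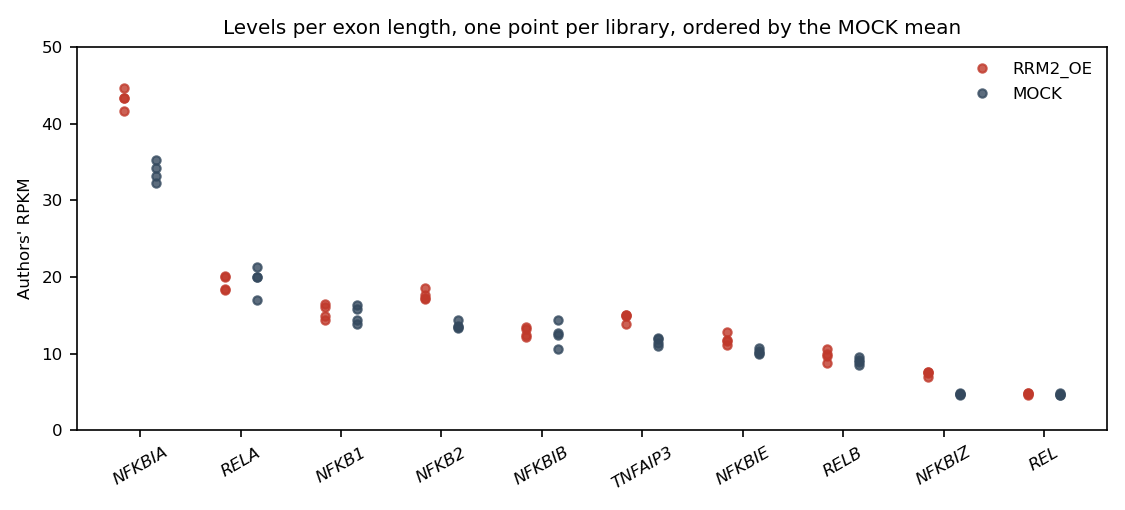
The authors' RPKM of each gene, 1 point per library, red for RRM2_OE on the left and dark blue-grey for MOCK on the right of each pair, ordered by the MOCK mean. NFKBIA is highest in both groups and REL lowest, with NFKBIZ level with REL in MOCK and above it in RRM2_OE.

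Ratios between genes within a library do not depend on how libraries are scaled. NFKBIA stood to RELA, its main partner, at 2.07, 2.35, 2.17 and 2.44 in RRM2_OE libraries and 1.61, 1.76, 1.62 and 1.95 in MOCK libraries (RPKM ratio). Every RRM2_OE library was above every MOCK library, and the mean log2 ratio differed by 0.38 (two-sided exact permutation test, p = 0.0286, the smallest that 4 against 4 libraries allow, and 0.0429 adjusted over the 3 ratios tested). That test takes all 8 libraries as exchangeable. The ratio of NFKB2 to NFKB1, the precursor genes of the non-canonical and the canonical branch, was 1.25, 1.06, 1.21 and 1.07 in RRM2_OE and 0.987, 0.812, 0.938 and 0.906 in MOCK. In RRM2_OE NFKB2 exceeded NFKB1 in all 4 libraries, and in MOCK it was below NFKB1 in all 4. This log2 ratio differed by 0.33 (exact permutation test, p = 0.0286, adjusted p = 0.0429). Both ratios set a gene that rose over one that did not pass, so they are not independent of those calls. RELB to RELA gave ratios of 0.524, 0.525, 0.497 and 0.479 in RRM2_OE and 0.399, 0.443, 0.480 and 0.539 in MOCK, with overlap and a difference of 0.13 on the log2 scale that did not pass (exact permutation test, p = 0.286, adjusted p = 0.286). With labels exchanged only within same-numbered pairs, the NFKBIA to RELA and NFKB2 to NFKB1 ratios each gave an exact p of 0.125, the smallest that 4 pairs allow, and so did not pass. Without RRM2_OE replicate 2, 3 or 4, neither ratio passed (exact permutation test, adjusted p = 0.0857 for both), and without any other single library both did (adjusted p = 0.0429). In those 3 settings NFKB2 to NFKB1 kept an exact p of 0.0286, the smallest that 3 against 4 libraries allow. After adjustment over 3 ratios it could not pass there unless another ratio did, and NFKBIA to RELA had an exact p of 0.0571.

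**Figure D4:**
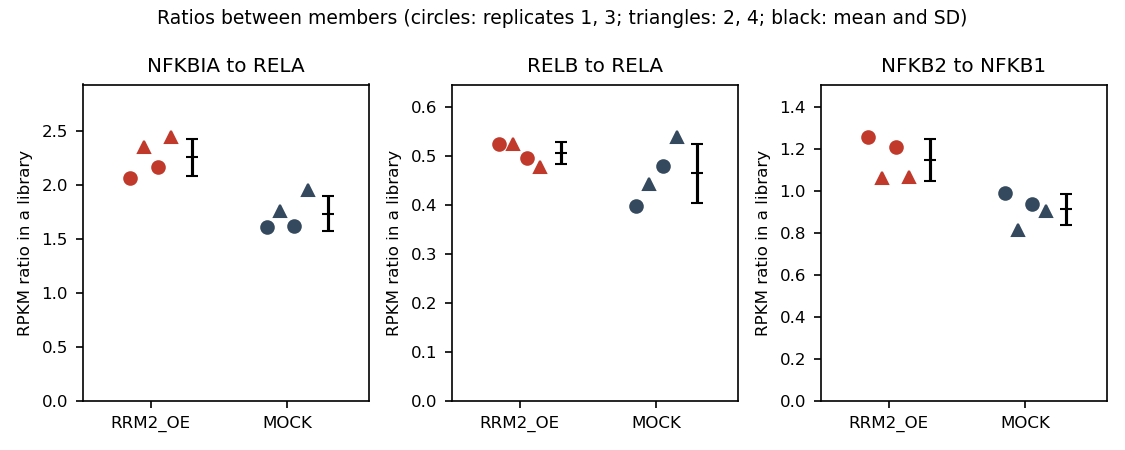
RPKM ratios within each library, RRM2_OE left and MOCK right in each panel, circles for replicates 1 and 3, triangles for replicates 2 and 4, and black bars for the mean and SD of 4 libraries. The NFKBIA to RELA and NFKB2 to NFKB1 ratios are higher in all RRM2_OE libraries, and the RELB to RELA ratios overlap.

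NFKB1 and RELA differed between the sets of replicate numbers. NFKB1 was lower in replicates 1 and 3 than in replicates 2 and 4, with a log2 difference of -0.15 (SE 0.04, adjusted p = 0.00104), and RELA was higher by 0.17 (SE 0.04, adjusted p = 0.00132, edgeR with group and number set as terms). Of all genes tested, 15.4% were higher and 15% lower in replicates 1 and 3 by this fit. None of the other 8 genes passed, and the 4 that rose in RRM2_OE had log2 differences between the sets of -0.02 to 0.05. The labels do not say what these numbers share.

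The gene whose pattern over the 8 libraries was closest to that of NFKBIZ was IL1B, among 10184 named genes with a mean of at least 10 CPM. The measure was the root-mean-square difference of log2 CPM, each gene centred on its own mean, and it was 0.043 for IL1B, 0.048 for RRM2B and 0.049 for IL7R. IL1B encodes an inflammatory cytokine, RRM2B a p53-inducible ribonucleotide reductase subunit and IL7R the receptor chain for interleukin 7. Their levels were 167 to 173, 87.4 to 95.6 and 126 to 134 CPM in RRM2_OE, against 103 to 111, 59.7 to 65.1 and 82.8 to 89.7 CPM in MOCK. The likeness includes the difference between the groups and so is largely fixed by it.

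Some genes that act upstream of NF-kB or restrain it also changed. Of 64 genes in the signalling list, 61 were matched and 60 tested: 10 rose, 2 fell and 48 did not pass, where 7.41% of all genes tested were called higher and 5.42% lower. Their median log2 fold change was 0.06, beside 0.00 over all genes tested. With replicate number as a block, 16 rose and 2 fell, where 15.1% of all genes tested were called higher and 14% lower. CD40, a receptor of the tumour necrosis factor family that feeds the non-canonical pathway, was at 23.6, 22.4, 23.2 and 21.5 CPM in RRM2_OE and 11.5, 14.7, 11.3 and 13.3 CPM in MOCK. CD40 had the largest rise of the list, at 0.84 on the log2 scale (SE 0.09, adjusted p = 9.84e-05, edgeR), with 1.03 within replicates 1 and 3 and 0.65 within replicates 2 and 4. The adaptor TRAF1 (0.51), the interleukin 1 receptor IL1R1 (0.55) and the second tumour necrosis factor receptor TNFRSF1B (0.35) also rose, each with every RRM2_OE library above every MOCK library. The change of IL1R1 was 0.43 within replicates 1 and 3 and 0.68 within replicates 2 and 4.

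IRAK3, a kinase-dead brake on toll-like receptor signalling, fell to 162, 158, 166 and 162 CPM in RRM2_OE, against 204, 199, 196 and 193 CPM in MOCK. Its log2 fold change was -0.29 (SE 0.04, adjusted p = 5.82e-04, edgeR). The first tumour necrosis factor receptor TNFRSF1A fell by 0.20 on the log2 scale (SE 0.05, adjusted p = 0.0137, edgeR), to 86.3 to 93.0 CPM in RRM2_OE against 99.7 to 108 CPM in MOCK. The most abundant genes that did not pass were the TNFAIP3 partners TNIP1, at -0.01 (adjusted p = 0.935), and TAX1BP1, at -0.06 (adjusted p = 0.452, edgeR). The IkB kinase genes CHUK (0.13) and IKBKB (-0.00) and the non-canonical kinase MAP3K14 (-0.05), named after their values were seen, did not pass either. IKBKG, IKBKE and OTUD7B were not analysed here, as no row was matched to them.

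Among genes known as NF-kB targets, most of those tested rose. Of 50 in the list, none of which is among the 10 genes, 44 were tested: 27 rose, 0 fell and 17 did not pass. The median change of the 44 was 0.37 on the log2 scale. The background over all genes tested was 7.41% higher and 5.42% lower, with a median of 0.00. With replicate number as a block 40 of the 44 rose, where 15.1% of all genes tested did, and at a threshold of 0.01 on the adjusted p 18 rose. Of the 27, VCAM1 had 24 to 31 counts in RRM2_OE libraries and 8 to 10 in MOCK libraries. IL23A had 19 to 32 counts in RRM2_OE libraries and 9 to 15 in MOCK libraries. Both were named after their values were seen. Neither reached the level of the filter on low counts in all 4 MOCK libraries. They passed it only through RRM2_OE, so their place among the 27 is no evidence of a rise. The list was drawn up with earlier results of these libraries known, so its count is not independent evidence of a direction. IL1B was at 173, 171, 171 and 167 CPM in RRM2_OE and 111, 108, 111 and 103 CPM in MOCK, a log2 fold change of 0.65 (SE 0.04, adjusted p = 2.04e-06, edgeR). The co-stimulatory ligand CD86 (0.78, adjusted p = 4.60e-06), the dendritic cell maturation marker CD83 (0.44, adjusted p = 1.32e-04) and the neutrophil chemokine CXCL8 (0.40, adjusted p = 1.63e-04, edgeR) were the next by adjusted p.

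The most abundant targets that did not pass were the gelatinase MMP9 and the growth factor CSF1. MMP9 was at 893, 684, 962 and 700 CPM in RRM2_OE and 863, 645, 799 and 613 CPM in MOCK, high in replicates 1 and 3 of both groups, with a log2 fold change of 0.15 (adjusted p = 0.553, or 2.13e-04 with replicate number as a block, edgeR). CSF1 was at 633, 560, 656 and 591 CPM in RRM2_OE and 632, 565, 589 and 528 CPM in MOCK, with a log2 fold change of 0.08 (adjusted p = 0.497, or 0.0380 with the block, edgeR). The survival genes XIAP (-0.04) and CFLAR (0.00), named after their values were seen, did not pass.

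**Figure D5:**
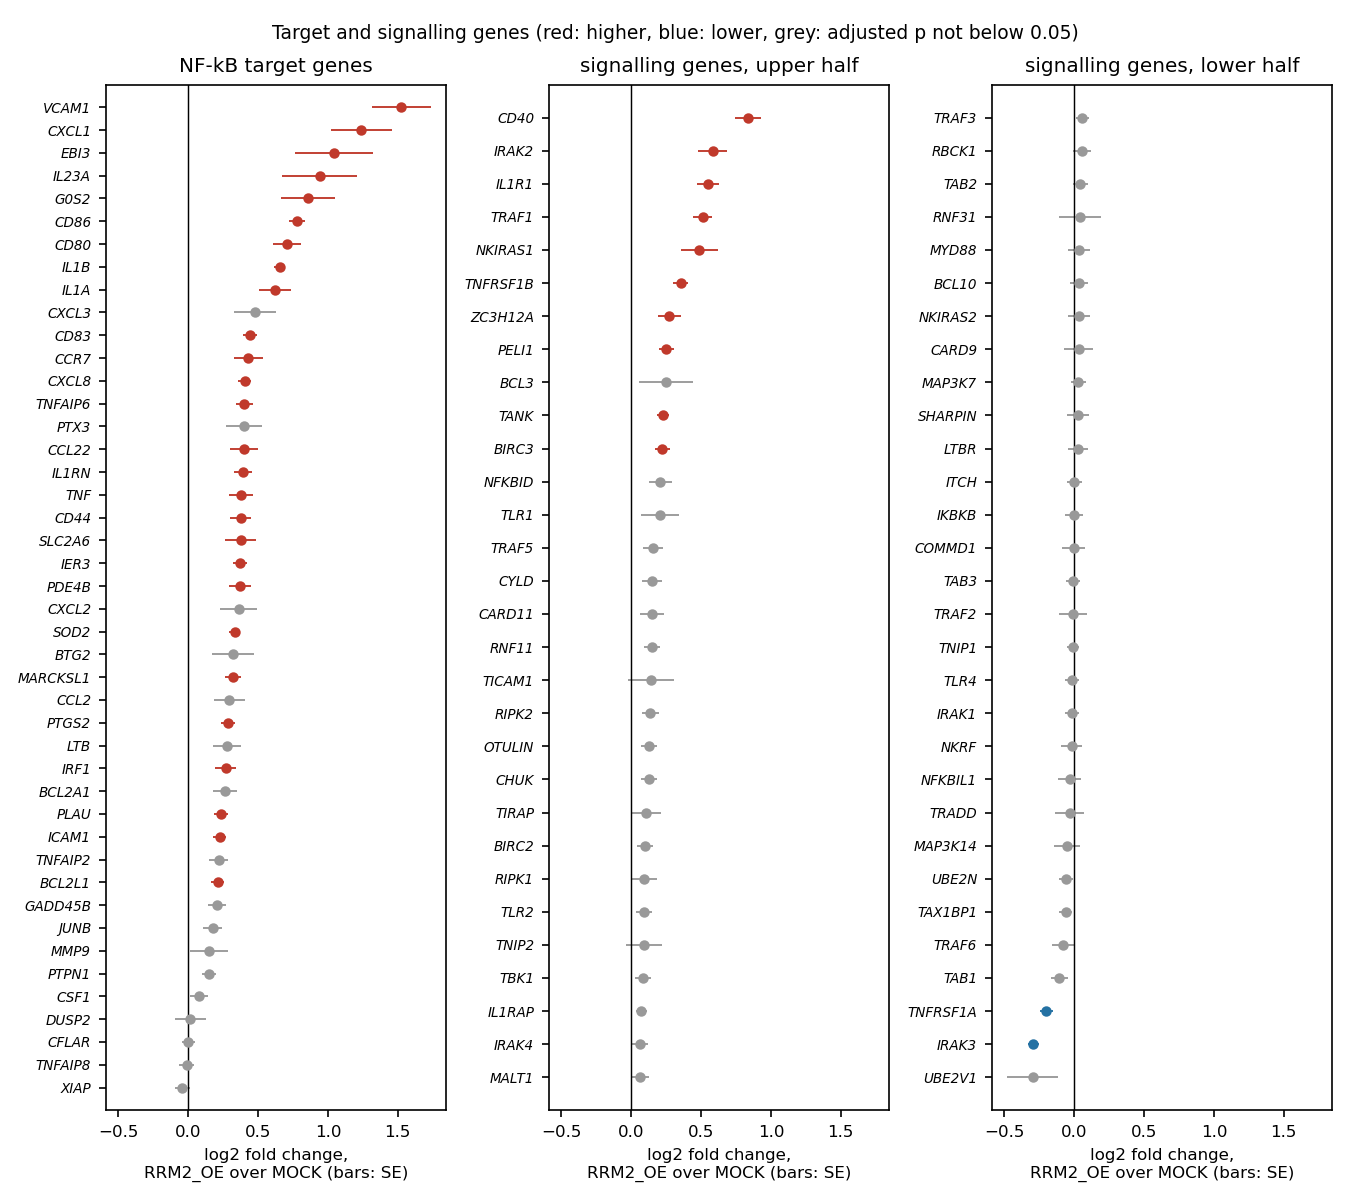
The log2 fold change of RRM2_OE over MOCK, with bars for the SE, for the tested target genes (left) and signalling genes (middle and right), red for higher, blue for lower and grey for an adjusted p not below 0.05. In the target list 27 of 44 genes are red and 0 are blue, and in the signalling list 10 of 60 are red and 2 are blue.

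Markers of monocytes and of other lineages were read in the same way, against the 7.41% of all genes tested that were called higher and the 5.42% called lower. The 17 monocytic markers summed to 4206 to 4235 CPM in RRM2_OE and 3445 to 3605 CPM in MOCK, and of 16 tested 6 rose and 1 fell. Of 10 T and NK cell markers, 4 passed the filter on low counts and were called higher (CD3D, NKG7, GNLY and CD8A). CD8A had 10 to 18 counts in RRM2_OE libraries and 3 to 4 in MOCK libraries, so it passed the filter only through RRM2_OE and had to differ. The list summed to 65.3 to 80.3 CPM in RRM2_OE and 44.9 to 50.2 CPM in MOCK. LCK was at 0 in all 4 MOCK libraries, and CD3G, CD2, CD8B and KLRD1 were at most 0.261 CPM in any library. Of 7 B and plasma cell markers, 1 rose and 1 fell among 4 tested, with sums of 14.3 to 16.8 CPM in RRM2_OE and 13.5 to 16.7 CPM in MOCK. The 12 erythroid and megakaryocyte markers summed to 928 to 1034 CPM in RRM2_OE and 1053 to 1126 CPM in MOCK, with 2 higher and 3 lower among 11 tested. Of 9 epithelial and fibroblast markers, 3 were tested and 1 rose, KRT19 was at 0 in every library, and the sums were 42.5 to 46.7 CPM in RRM2_OE and 38.1 to 44.4 CPM in MOCK. Their part in the changes of the NF-kB genes was not tested.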

How the data were processed

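Groups and replicate numbers came from the sample labels, and every value column was matched to a sample by name. Per the labels' protocols, 200 ng of total RNA went into each stranded poly(A) library. Named in the submitters' processing notes are HTSeq 0.11.2, TopHat2, bcl2fastq 2.18.0.12 and the build hg19 (GRCh37). The sources used here do not give the annotation or strand setting used in counting. The authors deposited raw counts per Ensembl gene and an RPKM table. That RPKM table, per the file headers per kilobase of total exon length, was recomputed from the counts to within a relative 2.4e-07. Symbols were assigned by Ensembl ID from a table of current names for 32562 genes and from GENCODE 29 for 299 more.

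The counts went into edgeR 4.0.16 under R 4.3.3 (default filterByExpr, TMM, robust quasi-likelihood F test, RRM2_OE against MOCK, no covariate), with Benjamini-Hochberg adjustment over 15286 genes and a threshold of 0.05. Each standard error is the size of the log2 fold change divided by the root of F. The common biological coefficient of variation was 7.2%, and 2.64% with a term for odd and even replicate numbers. The test was also run on simulated counts with known changes, and it missed some of every size tried, the small ones most often. A gene that did not pass is therefore not shown to be unchanged. Alternatives used DESeq2 1.42.0, limma 3.58.1, other scalings and filters, log2(RPKM + 1) and log2(RPKM + 0.1), a replicate block, an odd/even term, a threshold of 0.01 and leaving out each library. Fits within replicates 1 and 3 or 2 and 4 were added after the data were seen, as was permuting the ratios within odd and even numbers.

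Deviations from the group means of same-numbered libraries correlated at 0.225 to 0.251 in all 4 pairs. Differently numbered libraries across groups of like parity, odd or even, correlated about as much (0.227 to 0.294) and those of unlike parity at -0.276 to -0.212. The correlations thus followed parity and do not show that same-numbered libraries are pairs. The reported fit used neither term, and the replicate block and the odd/even term were run as alternatives. Within a group, pairs of like parity had a chi-square per degree of freedom of 1.47 to 2.90, and pairs of unlike parity 6.18 to 12.0. Every pair was above the level that sampling alone would give, and the libraries were kept separate. Libraries of like parity were much closer to each other than to the rest of their group. Whether the 4 libraries of a group are independent replicates was not tested.

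Text names RRM2, the 10 genes, and in the signalling and target lists the 4 smallest adjusted p in each direction and the 2 most abundant genes not called, then the 3 genes most like the member with the smallest adjusted p. Other named genes were chosen after their values were seen. The members and lists were chosen with earlier results of these data known. Promoter sequences are from RefSeq (GRCh38.p14) and were matched by symbol, and no hg19 coordinate was converted.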

Additional observations from a re-analysis of the deposited data

Results flagged for a closer look

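In each group of 4 libraries, the highest and the lowest level of the 10 genes and RRM2 were compared with the nearest other library by Dixon's criterion, over 22 groups in all, of which chance would mark about 1 in 20. NFKBIZ in RRM2_OE replicate 1, at 41.4 CPM, lay apart below the other RRM2_OE libraries (44.0 to 44.5 CPM), and without that library the log2 fold change of NFKBIZ still passed. REL in MOCK replicate 1, at 57.0 CPM, lay apart above the other MOCK libraries (51.7 to 52.3 CPM).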

How the results depend on the processing

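NFKB2, NFKBIA, NFKBIZ and TNFAIP3 were called higher under all 21 alternatives, with log2 fold changes of 0.31 to 0.39, 0.32 to 0.37, 0.55 to 0.70 and 0.26 to 0.41, and 4 genes were called whichever library was left out. NFKBIE joined them in 3 fits: with the replicate block (0.19), with the odd/even term (0.19) and within replicates 1 and 3 (0.29). The count of signalling genes called higher was 16 with the replicate block, 19 with the odd/even term and 6 at a threshold of 0.01, where 1 was lower; leaving out single libraries gave 7 to 9. The count of target genes called higher was 40 with the replicate block and with the odd/even term, 18 at a threshold of 0.01, and 23 to 29 without single libraries. The replicate block left the log2 ratio differences at 0.38 (NFKBIA to RELA), 0.13 (RELB to RELA) and 0.33 (NFKB2 to NFKB1), but with its pairs the exact p cannot go below 0.125. Permuting within odd and even numbers gave an exact p of 0.0556 for NFKBIA to RELA (0.38) and for NFKB2 to NFKB1 (0.33), the smallest it allows. Without single libraries the differences were 0.34 to 0.44, 0.06 to 0.20 and 0.28 to 0.37. Signs turned only for genes near 0 that no fit called: over single libraries left out, NFKB1 ranged from -0.0121 to 0.0623, REL from -0.0185 to 0.0344, RELA from -0.108 to 0.0168, NFKBIB from -0.0525 to 0.0804 and TNIP1 from -0.0341 to 0.0101. REL, -0.00 in the reported fit, was 0.0133 with library sizes only, 0.000136 with the replicate block, 0.000339 with limma-voom, 0.0110 on log2(RPKM + 1), 0.0131 on log2(RPKM + 0.1) and 0.00719 within replicates 1 and 3. TNIP1, -0.01 in the reported fit, was 0.00539 with library sizes only, 0.0039 and 0.00397 on these RPKM scales and 0.0192 within replicates 2 and 4. TNFRSF1A missed the threshold of 0.01. The cause of these shifts was not tested.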
